A study of Mus musculus with 14 samples.

Results

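The Hox genes of clusters A to D were examined in the acetylation landscape of the embryonic mouse retina. The set comprised 38 of the 22219 protein-coding genes of the annotation: 10 genes of HoxA on chromosome 6, 10 of HoxB on chromosome 11, 9 of HoxC on chromosome 15 and 9 of HoxD on chromosome 2. They were chosen by name, and the measure was any H3K27ac peak that touched a gene body extended by 5 kb or lay between the first and the last gene of a cluster. No peak met this rule, out of 13463 in the genome. At the transcription start sites (TSSs), a peak lay within 1000 bp of 0 of 71 Hox TSSs, against 49.0% of all protein-coding TSSs.

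The study followed retinal progenitor cells and the LIM homeodomain factor LHX2 through mouse development, in 14 samples profiled by ATAC-Seq, RNA-Seq and ChIP-Seq. Only the ChIP-Seq against histone H3 acetylated at lysine 27 at embryonic day 14 (E14) is described here, from CD1 mice with no knockout allele stated for them, although the treatment text that the label shares with the other samples names the Lhx2 conditional knockouts of the study. The label reads retinal progenitor cells, whereas the methods describe whole dissected retinas, so neurons already born and any adhering tissue can be part of the material. A single list of peaks was available, called on 2 pooled ChIP libraries (113543038 tags after filtering) against 1 isotype control (9210563 tags), so no error between replicates can be given, and intervals below cover counting only.

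Hox genes encode homeodomain transcription factors that give the cells of an embryo their position along the head to tail axis, and the order of the genes along each chromosome follows the order of their domains in the body. Genes of the low-numbered paralog groups act in the hindbrain and pharyngeal arches, and those of the high-numbered groups in the posterior trunk, limbs and urogenital tract. The retina derives from the forebrain, which lies anterior to the Hox domains. Acetylation of H3K27 marks promoters and enhancers in use, and Polycomb complexes, which trimethylate the same lysine, are known to cover silent Hox clusters.

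Promoter sequences are shown because most TSSs with a comparable CpG content carried a peak in this list and those of the Hox genes did not. For HoxA and HoxD, the clusters with the most CpG-rich TSSs, the 250 bases upstream of the member TSS with the most CpG dinucleotides in that stretch were read from the mm9 assembly. Capitals mark CpG dinucleotides. Hoxa13, which patterns digits and the genital tubercle, had 42 CpGs at chr6:52210797-52211046 on the minus strand.
Hoxa13: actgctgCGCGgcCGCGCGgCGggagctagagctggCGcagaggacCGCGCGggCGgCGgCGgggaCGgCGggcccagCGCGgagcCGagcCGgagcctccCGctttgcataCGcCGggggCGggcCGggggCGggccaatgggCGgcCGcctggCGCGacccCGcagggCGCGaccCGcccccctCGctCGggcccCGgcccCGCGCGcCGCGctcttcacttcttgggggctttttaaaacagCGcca
Hoxd13, which patterns digits together with Hoxa13, had 31 CpGs at chr2:74506117-74506366 on the plus strand.
Hoxd13: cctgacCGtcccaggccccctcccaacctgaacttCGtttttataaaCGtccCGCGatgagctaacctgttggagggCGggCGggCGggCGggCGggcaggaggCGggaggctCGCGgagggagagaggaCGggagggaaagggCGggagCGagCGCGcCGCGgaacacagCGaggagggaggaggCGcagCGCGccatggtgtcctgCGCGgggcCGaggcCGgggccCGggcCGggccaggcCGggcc
The nearest peaks to these TSSs were 248 and 88.9 kb away, respectively. For contrast, a promoter of Meis1, whose product binds DNA as a partner of Hox proteins, had 13 CpGs at chr11:18918962-18919211 on the minus strand and lay inside a peak at chr11:18907312-18921752 with a fold enrichment over the isotype control of 5.47.
Meis1: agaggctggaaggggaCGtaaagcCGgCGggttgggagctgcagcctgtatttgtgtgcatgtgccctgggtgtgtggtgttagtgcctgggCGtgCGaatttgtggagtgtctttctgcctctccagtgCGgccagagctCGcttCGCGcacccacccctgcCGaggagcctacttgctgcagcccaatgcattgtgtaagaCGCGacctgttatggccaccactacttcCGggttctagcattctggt

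The share of TSSs with a peak was 0 of 24 in HoxA, 0 of 16 in HoxB, 0 of 13 in HoxC and 0 of 18 in HoxD. A count of 0 of 71 allows a share of up to 4.23% by the limit of 3 counts, and the upper end of its 95% Wilson interval was 5.13%. These limits, and the limit by gene below, treat TSSs or genes as independent. They are too tight, since many TSSs are alternative starts of 1 gene and all lie in 4 clusters. Over all protein-coding TSSs, 22527 of 45962 had a peak within 1000 bp (Wilson interval 48.6 to 49.5%). Counted by gene, 0 of 38 Hox genes had a peak at a TSS, which allows up to 7.89%, while 49.7% of all protein-coding genes had one. The clusters differed neither in this count nor in the covered length. The 4 spans, from the first to the last member, were chr6:52112350-52210874 (98.5 kb), chr11:96055630-96229570 (174 kb), chr15:102751534-102867274 (116 kb) and chr2:74506367-74603200 (96.8 kb), and none of their 485041 bp lay in a peak. Peaks covered 0.615% of the known bases of the genome, a share that would come to 2982 bp over the same length. Because the list holds no value outside the called regions, a missing peak says that no region passed the limits of the caller, not that acetylation was absent.

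**Figure D1:**
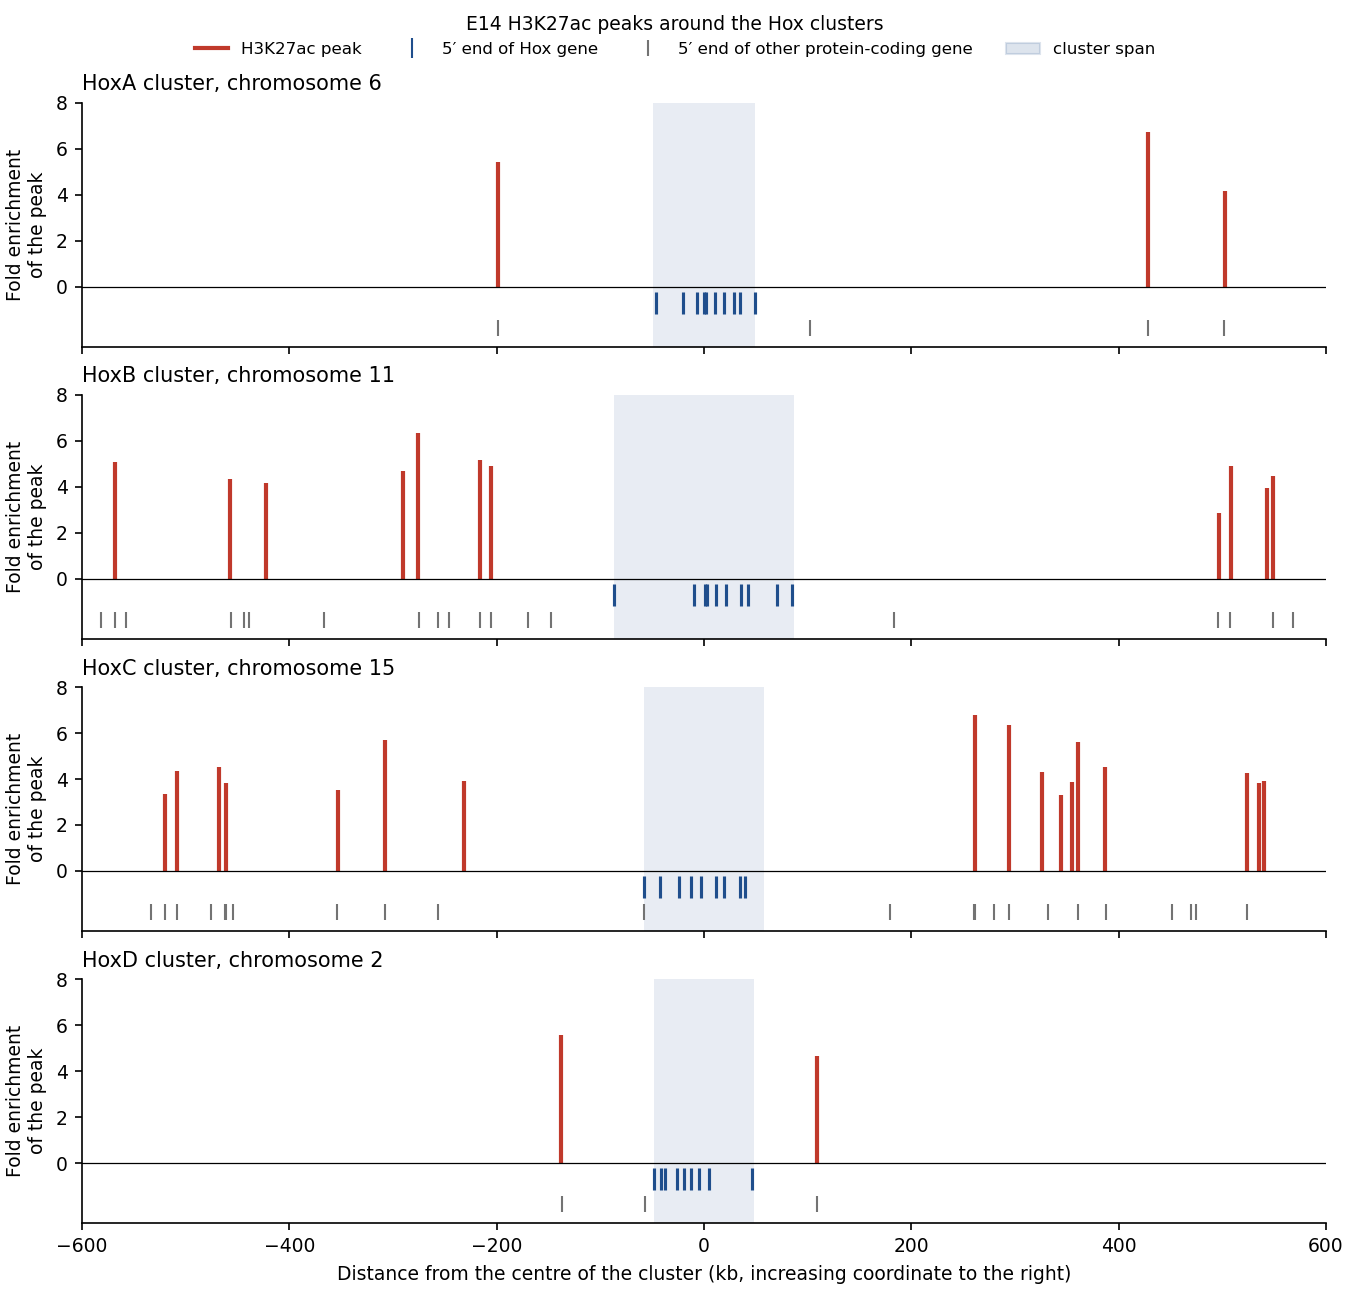
H3K27ac peaks within 500 kb of each edge of the 4 Hox clusters, plotted by distance from the cluster centre in kb, with the height of each red line giving the fold enrichment over the isotype control. Blue ticks are the 5′ ends of the 38 Hox genes, grey ticks those of other protein-coding genes, and the shaded spans hold no red line in any of the 4 panels.

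The peak-free stretches reached well past the genes themselves. The peak-free interval around HoxA was 626 kb long, that around HoxB 701 kb, that around HoxC 491 kb and that around HoxD 246 kb, whereas the median interval between neighbouring peaks was 59.2 kb. Long intervals as such were common: the HoxB interval ranked 790 by length among 13442 and the HoxD interval 2250. On 7 of the 8 sides the interval ended at a TSS of another coding gene. On the low-coordinate side of HoxA the first peak, chr6:51962730-51963221, lay at the TSS of Skap2, 149 kb from the cluster and next to the low-numbered genes, with a fold enrichment of 5.44. On the other side, beyond Hoxa13 and Evx1, it was a peak of 682 bp at Hibadh, an enzyme of valine breakdown, 379 kb away (chr6:52589693-52590374, fold enrichment 6.73). Evx1, an even-skipped type homeobox gene, had none itself, and its nearest peak was 300.3 kb away.

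HoxB was bounded by a peak at Atp5g1, a subunit gene of the mitochondrial ATP synthase, 118 kb from Hoxb13 (chr11:95936161-95937831, fold enrichment 4.91). Beyond Hoxb1 no peak was listed for 409 kb, up to Snx11, a sorting nexin gene (chr11:96638547-96639378). The Snx11 peak was weak, with a fold enrichment of 2.89 and a −log10 q of 1.40, against a median fold of 4.46 over the list. Ttll6 and Skap1, the coding genes nearest to either side of HoxB, had no peak.

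HoxC was bounded by the only one of the 8 flanking peaks that had no annotated TSS within 1000 bp. This peak, chr15:102577130-102578016 with a fold enrichment of 3.93, was 174 kb from Hoxc13 and 24.5 kb from Calcoco1. Past Hoxc4, a peak of 2668 bp spanned the divergent start of Cbx5, which encodes heterochromatin protein HP1 alpha, and Hnrnpa1, an RNA-binding protein gene, at 202 kb (chr15:103069464-103072131, fold enrichment 6.79). Gm17649 beside Hoxc13, and Smug1, a DNA repair gene on the other side, had none.

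HoxD had the nearest peaks of the 4 clusters. They lay at Lnp, 88.9 kb from Hoxd13 (chr2:74416390-74417492, fold enrichment 5.57), and at Mtx2, which encodes a mitochondrial outer membrane protein, 60.4 kb from Hoxd1 (chr2:74663569-74664430, fold enrichment 4.65). Both genes are textbook neighbours of HoxD, and each had a peak close to the median fold of the list or above it. Evx2, which lies between Hoxd13 and Lnp with its 5′ end 8.45 kb from the cluster, had no peak, and the nearest was 80.4 kb from it.

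The gene deserts that are known to hold the limb and digit enhancers of HoxD begin beyond these neighbours, and within 500 kb of the cluster no peak other than those at Lnp and Mtx2 was listed. HoxA had 3 peaks within 500 kb of its edges, HoxB 11, HoxC 17 and HoxD 2. Seen from each gene, the number of peaks within 500 kb of its 5′ end was 2 to 3 for HoxA genes, 2 for every HoxD gene, 6 to 9 for HoxB genes and 12 to 14 for HoxC genes, where the median over all protein-coding genes was 8. HoxA and HoxD thus lay in surroundings with few peaks, and 16.3% of all genes had as few as their medians or fewer. HoxB genes lay on both sides of the median and HoxC genes above it. The number of genes in the same windows put the clusters in the same order, with medians of 15.5 for HoxA, 24.5 for HoxB, 28 for HoxC and 13 for HoxD, against 16 over all genes. The median number of peaks per gene in these windows was 0.160 for HoxA, 0.320 for HoxB, 0.464 for HoxC and 0.154 for HoxD. All 4 lay below the 0.6 over all genes. Of the other coding genes within or near the clusters, 3 of 5 at HoxA, 8 of 20 at HoxB, 12 of 23 at HoxC and 2 of 4 at HoxD had a TSS peak, near the 49.7% of all genes. Of those with a CpG-rich window, 7 of 8 at HoxB, 5 of 6 at HoxC and 2 of 3 at HoxD had one, against 88.2% of all genes with such a window. The peak with the highest fold among those at HoxB was 4822 bp long at Igf2bp1, which encodes an RNA-binding protein of embryonic cells, 186 kb from Hoxb13 (fold enrichment 6.36).

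The distance from the 5′ end of a gene to the nearest peak had a median of 206 kb over the 38 Hox genes, with a range of 62.5 kb (Hoxd1) to 289 kb (Hoxb1). Over the 22181 other protein-coding genes the median was 4.11 kb (quartiles 0 and 79.6 kb), and 27.8% of them lay farther from a peak than Hoxd1. The median of the other genes depended on the limits for a peak and was 24.9 kb with stricter peaks (fold enrichment of at least 4, q of at most 0.001), where that of the Hox genes was 212 kb. Among the 11148 other genes that also had no TSS peak, the median was 77.1 kb (quartiles 25.4 and 240 kb). Distances of genes within a cluster are not independent, since each is set by the same flanking peaks. The medians were 204 kb in HoxA (152 to 248 kb), 221 kb in HoxB (118 to 289 kb), 220.1 kb in HoxC (174 to 243 kb) and 104 kb in HoxD (62.5 to 121 kb). HoxD did not overlap with HoxA or HoxC, and Hoxb13, at the edge of HoxB, was the only gene of the other clusters within the HoxD range.

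**Figure D2:**
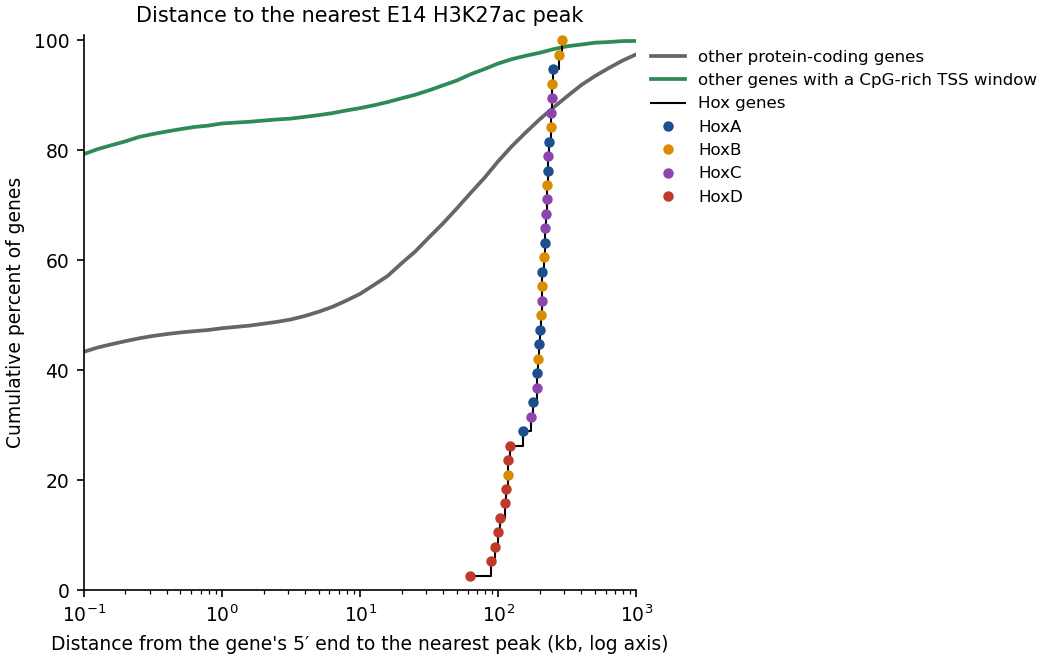
Cumulative percent of genes by the distance in kb (log axis) from the 5′ end to the nearest H3K27ac peak, for the 38 Hox genes (points, coloured by cluster) and for the other protein-coding genes with and without the restriction to CpG-rich TSS windows (lines). All Hox genes lie between 62.5 and 289 kb, whereas the median of the other genes is 4.11 kb (24.9 kb with stricter peaks) and most CpG-rich genes already have a peak at the left edge of the axis.

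The low-numbered paralog groups 1 to 3 comprised 7 genes and 18 TSSs. Hoxb1, which specifies the fourth segment of the hindbrain, had its nearest peak 289 kb away and a single TSS with a CpG observed to expected ratio of 0.405 in the window of 1000 bp on each side. Hoxa2, which patterns the second pharyngeal arch, was 152 kb from a peak (69 CpGs in its window), and Hoxb2 275 kb (46 CpGs). Hoxd1 differed in sequence from these, with a ratio of 0.705 and 143 CpGs in its window, and it was the Hox gene nearest to a peak. The group 3 genes had several TSSs each. Hoxa3, required for the thymus and parathyroid, had 5 TSSs with ratios from 0.137 to 0.552, Hoxb3 had 3 with ratios from 0.231 to 0.390, and Hoxd3 had 6 with ratios from 0.283 to 0.637. None of the alternative starts of these genes had a peak, and their 5′ ends were 200.1, 247 and 114 kb from one.

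The middle groups 4 to 8 comprised 15 genes and 28 TSSs, with a median distance of 209 kb. In group 4, Hoxa4 was CpG-rich (ratios 0.847 and 0.867) and 179 kb from a peak, whereas Hoxb4, known from blood stem cells, had a ratio of 0.258 at 240.2 kb. Hoxc4 (220.1 kb) and Hoxd4 (104 kb) had ratios of at most 0.411 and 0.485. Hoxa5, which acts in lung and in phrenic motor neurons, had a ratio of 0.886 at 191 kb. Hoxb5 lay at 226 kb (ratio 0.526) and Hoxc5 at 225 kb (ratio 0.484). The group 6 genes Hoxa6, Hoxb6 and Hoxc6, the last a marker of brachial motor neurons, lay at 198, 216 and 241 kb and had no ratio above 0.595. Hoxa7 lay at 209 kb, with ratios of 0.387 to 0.690 over 4 TSSs, and Hoxb7 at 208 kb with a ratio of 0.594. In group 8, Hoxd8 had the highest single ratio of all Hox TSSs, with values of 0.852 to 0.956 over 3 TSSs and up to 211 CpGs, and lay 121 kb from a peak. Hoxb8 (205 kb) reached 0.757 and the single TSS of Hoxc8 (243 kb) 0.485. Over groups 4 to 8 the ratios ran from 0.174 to 0.956, and none of the 28 TSSs had a peak.

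The high-numbered groups 9 to 13 comprised 16 genes and 25 TSSs and held most of the CpG-rich starts. Hoxa9, which is active in blood progenitors, lay 218 kb from a peak, Hoxb9 195 kb, Hoxc9 229 kb and Hoxd9 118 kb. The highest ratio at a TSS was 0.735 for Hoxa9, 0.684 for Hoxb9, 0.610 for Hoxc9 and 0.747 for Hoxd9, so that all 4 genes of group 9 had a CpG-rich start. In group 10, whose genes suppress ribs in the lumbar spine, Hoxa10 lay at 228 kb (ratio up to 0.720), Hoxc10 at 219 kb (ratio 0.538) and Hoxd10 at 112 kb. Hoxd10 had a ratio of 0.650 but a GC content of 49.4%, just under the limit for a CpG-rich window. In group 11, required for the kidney and the forearm, the distances were 233 kb for Hoxa11, 207 kb for Hoxc11 and 99.96 kb for Hoxd11, whose 2 TSSs had ratios of 0.801 and 0.858. Hoxc12 lay at 189 kb (ratio 0.681) and Hoxd12 at 95.5 kb (ratio 0.510). In group 13, Hoxa13 had 3 TSSs with ratios from 0.863 to 0.868 and lay at 248 kb. Hoxd13 had a ratio of 0.840 at 88.9 kb, and Hoxc13, which acts in hair and nails, one of 0.694 at 174 kb. Hoxb13, a gene of the tail bud and prostate, stood apart within the group at 0.389, 118 kb from a peak.

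From low to high groups the share of TSSs in a CpG-rich window (ratio of at least 0.6 and GC of at least 50%) was 16.7%, 32.1% and 64%, and the median ratio was 0.469, 0.517 and 0.670. The count of TSSs with a peak was 0 of 18, 0 of 28 and 0 of 25. Sequence composition thus varied with the paralog group. The peak count was 0 throughout, the lowest value it can take, and so cannot show whether acetylation varied between the groups. The median distances of 200.1, 209 and 192 kb lay within the spread of the genes in each group.

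Peak calls of this list followed CpG content closely across the genome, so the composition of the Hox windows bears on the comparison. Over all protein-coding TSSs, the share with a peak was 1.28% below a CpG ratio of 0.2, 57.3% from 0.4 to 0.5, 86.6% from 0.6 to 0.7 and 94.3% from 0.8 to 0.9. The Hox TSSs were somewhat richer in CpG than the rest, with a median ratio of 0.552 (0.137 to 0.956) against 0.461 and a median of 79 CpGs per window against 60. Of the 71 Hox TSSs, 28 (39.4%) had a CpG-rich window, against 29.6% of the 45922 windows of other genes (here a position shared by several genes counts once for each), and 0 of the 28 had a peak, where 90.1% of all CpG-rich TSSs had one (12270 of 13617). By gene, 19 of the 38 Hox genes had a CpG-rich window and 0 of these 19 had a peak, against 88.2% of the 7191 genes with such a window. If each Hox TSS is given the share of its own CpG bin, the sum is 48.1 of 71 TSSs, made up of 18.1 of 24 in HoxA, 8.45 of 16 in HoxB, 8.17 of 13 in HoxC and 13.4 of 18 in HoxD.

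**Figure D3:**
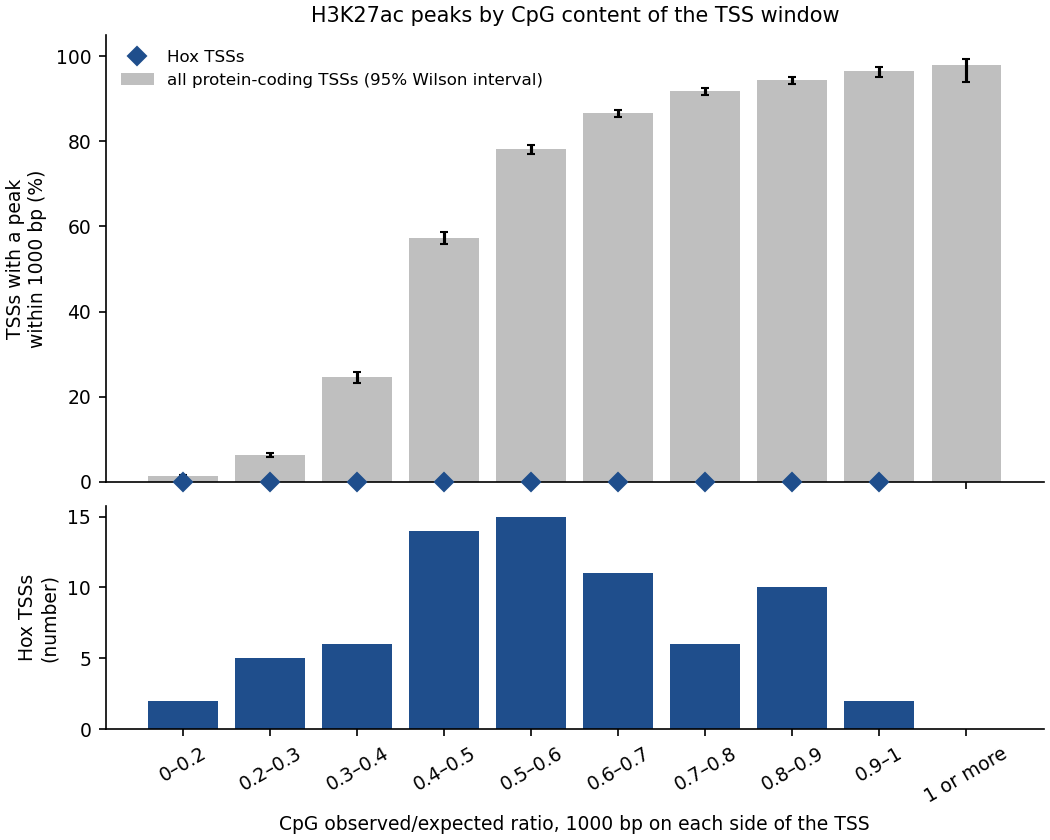
Upper panel, percent of all protein-coding TSSs with an H3K27ac peak within 1000 bp, by CpG observed to expected ratio of the window (bars, with 95% Wilson intervals), and the percent for Hox TSSs (diamonds). Lower panel, number of Hox TSSs per bin; the bars rise from 1.28 to 97.9% while the diamonds stay at 0 in all 9 bins that hold Hox TSSs.

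Over their whole spans the clusters held more CpGs than the genome, although no span met the limits used for a CpG-rich window. The CpG ratio was 0.480 in HoxA, 0.349 in HoxB, 0.357 in HoxC and 0.460 in HoxD, against 0.191 in the genome. HoxA held 29.9 CpGs per kb, HoxB 20.9, HoxC 21.5 and HoxD 28.0, against 8.34 per kb in the genome. The order of the clusters was the same for the number of CpG-rich genes: 7 of 10 in HoxA, 6 of 9 in HoxD, 4 of 9 in HoxC and 2 of 10 in HoxB. In CpGs per kb HoxB and HoxC were thus nearer to the genome, although still above it. HoxB contained only Hoxb8 and Hoxb9 as CpG-rich genes, and 4 of its 16 TSSs had a CpG-rich window, fewer than the 29.6% of other genes.

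Peak-free stretches with several CpG-rich genes were few. Of 13442 intervals between neighbouring peaks, 12687 (94.4%) contained no gene with a CpG-rich window and 3 contained 5 or more. The threshold of 5 was chosen after the values were seen. These 3 intervals were those of HoxA, with 7 CpG-rich genes, of HoxD, with 7 including Evx2, and of HoxC, with 5 including Gm17649. The 5′ end of Gm17649 lay 0.283 kb from the HoxC edge, so its window overlapped that of Hoxc13. Counting Hox genes alone, HoxC held 4 CpG-rich genes, which is below the threshold. With stricter peaks (fold enrichment of at least 4, q of at most 0.001) 8 intervals passed this threshold, of which 3 held Hox genes. With the CpG content of a shorter window (250 bp before to 50 bp after the TSS) 7 passed it, of which 4 held Hox genes, so the restriction to Hox intervals held for the list and window used here and for neither alternative. In the list as used, the HoxB interval contained 2. A further 4 intervals contained 4, and their genes included Dmrt1, Dmrt2 and Dmrt3, Foxc1, Foxf2 and Foxq1, the heat shock genes Hspa1a and Hspa1b, and Foxa2 with Pax1.

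**Figure D4:**
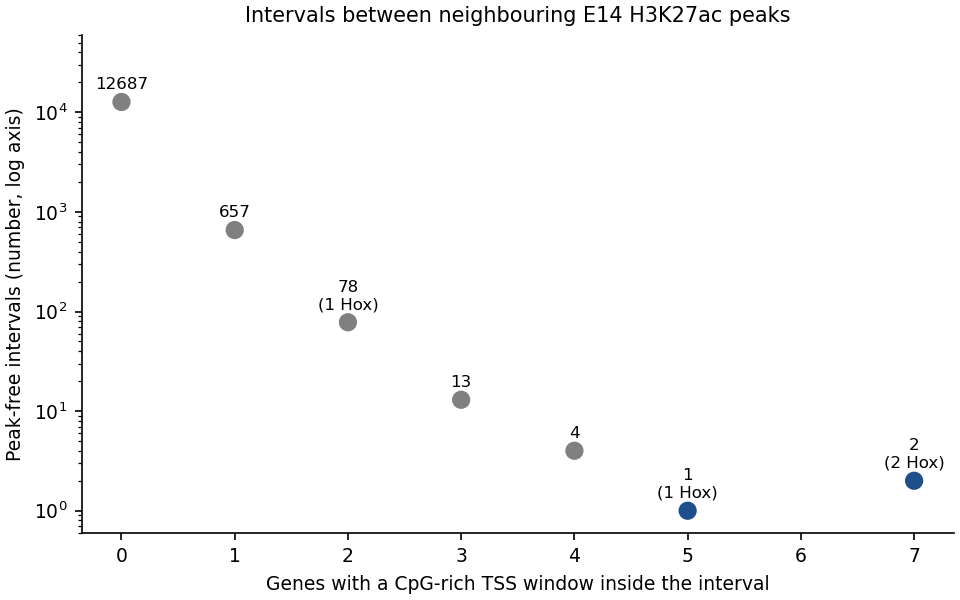
Number of peak-free intervals (log axis) by the number of genes with a CpG-rich TSS window inside them. Blue points are made up of intervals with Hox genes alone: 1 interval with 5 such genes and 2 with 7, against 12687 intervals with 0. The interval with 5 is that of HoxC and counts Gm17649, whose window overlaps that of Hoxc13.

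Non-coding genes within the clusters had no peak either. The annotation places 24 loci in the 4 spans, among them 5 lincRNA genes, 11 processed transcripts and 6 miRNA genes (4 of the miRNA loci are entered under both types and were counted once). A peak lay within 1000 bp of the 5′ end of 0 of 24, against 11.2% of the 10619 loci of these types in the genome. This background was low for miRNA genes (7.29%) and processed transcripts (13.7%), for which a count of 0 is near it, and 48.5% for lincRNA genes. The antisense RNA gene Hoxa11as lay 231 kb from the nearest peak and Hoxb3os 278 kb. The miRNA genes of Hox clusters are known to target Hox transcripts, and their mature sequences are shown because they fall into families that recur between clusters. Sequences are those of RefSeq for GRCm38.p6, with the seed, bases 2 to 8, in capitals. The mir-10 genes lie within the annotated group 4 genes Hoxb4 and Hoxd4, and both members share 1 seed.
miR-10a-5p: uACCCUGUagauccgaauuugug
miR-10b-5p: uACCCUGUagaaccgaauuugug
Of the mir-196 genes, Mir196b lies within Hoxa9, Mir196a-1 lies upstream of Hoxb9 and Mir196a-2 between Hoxc9 and Hoxc10, and they share a different seed.
miR-196a-5p: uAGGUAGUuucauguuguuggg
miR-196b-5p: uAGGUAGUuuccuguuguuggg
A single gene in HoxC, within Hoxc5, gives miR-615.
miR-615-3p: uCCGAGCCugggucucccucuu
Mir10a was 241 kb and Mir10b 99.4 kb from the nearest peak. Mir196b in HoxA was 217 kb away, Mir196a-1 in HoxB 189 kb, Mir196a-2 in HoxC 226 kb and Mir615 224 kb. The miRNA genes thus lay as far from a peak as the Hox genes around them.

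Short motifs were counted in the promoter from 250 bases before to 50 after each TSS, on both strands. TAATTA, a core sequence bound by many homeodomain proteins including LIM homeodomain factors, was in 3 of 71 Hox promoters (4.23%) and in 4.21% of all 45962. TGATNNAT, the form bound by Hox and PBX proteins together, was in 10 of 71 (14.1%) against 6.94% of all. Of the 10, 6 were in HoxB, out of 16 promoters (37.5%). TATAAA was in 11 of 71 (15.5%) against 11.35% of all, with 6 of the 11 in HoxA, and it is present in the printed promoter of Hoxd13. These are matches of letters only, and promoters of 1 gene overlap.

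Genes that act with or upon the Hox clusters were described from lists. The TALE homeodomain cofactors of Hox proteins had a TSS peak at 8 of 9 genes, against 49.7% of all genes, with a median fold enrichment of 4.82. The count was 4 of 4 with a CpG-rich window (background 88.2%) and 4 of 5 without one (background 31.2%). Meis1 had the highest at 5.47, Pbx2 followed with 4.95 and Pknox1 with 4.92, and Pbx4 had none. Cofactors and clusters thus differed in this list. The ParaHox and Evx genes, the closest relatives of the Hox genes, had a peak at 0 of 8, with a median distance of 95.5 kb to the nearest. Of these 8 genes, 4 had a CpG-rich window (background 88.2%) and 4 had no such window (background 31.2%). Evx1 and Evx2 lie in the same peak-free intervals as HoxA and HoxD and are no separate observations. Cdx1 and Cdx2, which act upstream of Hox genes in the trunk, lay 72.1 and 122 kb from a peak. Pdx1, a pancreas gene, lay at 160 kb.

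Other homeobox families had intermediate counts. In the sine oculis family a TSS peak was present at 4 of 6 genes, namely Six3, Six4, Six5 and Six6, of which Six3 and Six6 are eye field genes. The count was 2 of 6 for Irx genes (Irx2 and Irx3), 1 of 6 for Dlx genes (Dlx1) and 1 of 8 for the Lhx genes listed. Lhx2, the factor the study is about, was that 1 gene, with a fold enrichment of 5.69. Read by CpG content, a peak was present at 3 of 5 CpG-rich sine oculis family genes, 2 of 5 Irx genes, 1 of 3 Dlx genes and 1 of 7 Lhx genes with such a window, against 88.2% of all genes with one. The CpG-rich TALE cofactors had a peak at 4 of 4.

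Genes encoding the Polycomb complexes were mostly marked. For PRC2, which trimethylates H3K27, 10 of 11 genes had a TSS peak, including Mtf2 (fold enrichment 7.93) and the methyltransferase Ezh2 (5.33), and Phf19 had none. For PRC1, 15 of 16 had one, with Pcgf6 at 8.80 and Rnf2, the ubiquitin ligase, at 7.72, and Cbx7 had none. The trithorax and H3K27 demethylase genes, known to oppose Polycomb at Hox loci, had 6 of 7, with Mll1 at 4.98. Kdm6b was the exception, with its nearest peak 1.38 kb from its 5′ end. Both acetyltransferase genes, Ep300 (5.28) and Crebbp (4.26), had a peak. Among the genes with a CpG-rich window, where the background was 88.2%, the count was 8 of 9 for PRC2, 14 of 15 for PRC1, 3 of 3 for the trithorax and demethylase list and 2 of 2 for the acetyltransferases. The other 4 trithorax and demethylase genes had no such window, and 3 of them had a peak.

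Retinoic acid is the classical inducer of Hox genes, with the low-numbered groups responding first. Of its synthesis, receptor and degradation genes, 3 of 9 had a TSS peak: the receptor genes Rara (fold enrichment 5.19) and Rarb (3.78), and Aldh1a3 (3.79), a synthesis enzyme of the ventral eye. The degrading enzymes Cyp26a1, Cyp26b1 and Cyp26c1 had none, nor had Aldh1a1, Aldh1a2 and Rarg. By CpG content, 0 of 4 genes with a CpG-rich window had a peak, against 88.2%, and 3 of 5 without one, against 31.2%. The genes with a peak thus comprised a synthesis enzyme and 2 receptors. Those without comprised all 3 degrading enzymes, the synthesis genes Aldh1a1 and Aldh1a2, and the receptor gene Rarg.

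The labelled tissue was checked with marker genes. All 10 markers of retinal progenitors, among them Rax, Pax6 and Six3, had a TSS peak, with a median fold enrichment of 4.54. Of these, 7 had a CpG-rich window, where 88.2% of all genes had a peak, and 3 had no such window, where 31.2% had one. Of tissues that could adhere to a dissected retina, 1 of 5 pigment epithelium genes (Pmel), 1 of 5 endothelium and blood genes (Kdr), 0 of 5 lens genes and 0 of 5 genes of the periocular mesenchyme had one. None of the pigment epithelium, endothelium and blood genes has a CpG-rich window, where the background was 31.2%. Of the hindbrain and spinal cord genes, which belong to tissue where Hox genes are active, 0 of 5 had a peak. Mnx1 and Tlx3 were among those without one. In both the hindbrain and spinal cord list and the periocular mesenchyme list, 4 of the 5 genes had a CpG-rich window, for which the background was 88.2%. With 5 genes, the Wilson interval of such a count reaches 43.4%.

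**Figure D5:**
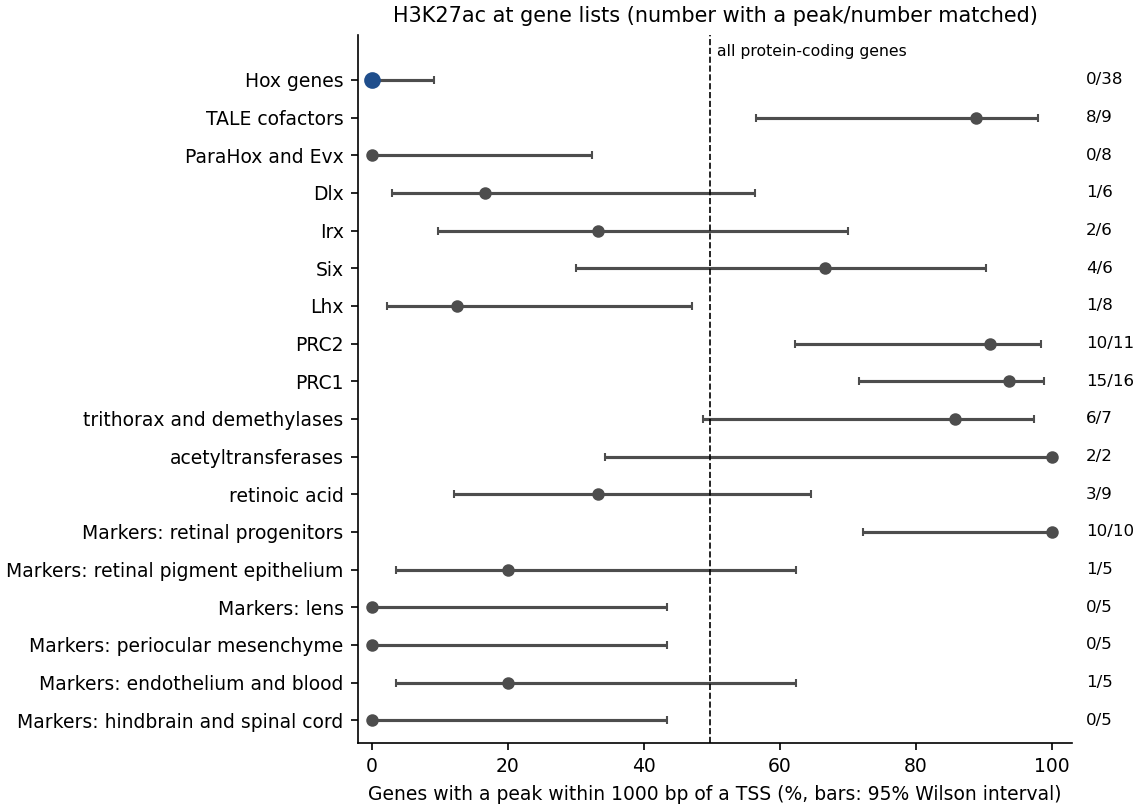
Percent of genes with an H3K27ac peak within 1000 bp of a TSS, for the 38 Hox genes and each gene list, with 95% Wilson intervals and the number with a peak over the number matched at the right. The dashed line marks the 49.7% of all protein-coding genes. Hox genes (0/38), ParaHox and Evx genes (0/8) and markers of lens, periocular mesenchyme, and hindbrain and spinal cord (0/5 each) lie at 0. Retinal progenitor markers (10/10) and Polycomb lists lie at or above 90.9%. Most genes of these last lists have a CpG-rich window, and 88.2% of all genes with such a window had a peak.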

How the data were processed

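Dissociated cells of E14 CD1 retinas were cross-linked, and chromatin of their nuclei was sonicated and immunoprecipitated with an antibody against H3K27ac or an isotype control. The authors aligned reads to mm9 with Bowtie2, pooled 2 replicate libraries and ran the broad mode of MACS 2.1.0.20140616. Per the file headers, the ChIP library had 113543038 tags after filtering and the control 9210563, a ratio of 12.3, and the deposited list was called on the pool with the larger library scaled down. The deposited signal is the mean pileup of a region, the fold enrichment is the ratio of that pileup to the local background of the isotype control, and the −log10 p and q values were averaged over each region by the authors. Peak lengths in bp are also as deposited. The remaining samples were not analysed here.

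Peaks were joined to GENCODE vM1 on mm9 by at least 1 bp of overlap with the window of 1000 bp on each side of a protein-coding TSS, counting each position once per gene. The largest q in the list was 0.0973. Shares carry 95% Wilson intervals, and a count of 0 was given the limit of 3 counts. CpG content was read from the mm9 genome over the same windows. No test was made, because 1 pooled list has no replicates and genes of a cluster share a locus. Members and gene lists were chosen with earlier results of these data known. All members were named or counted, with the nearest peak and coding gene on each side of a cluster and up to 4 genes per list (those with the highest fold at a TSS and those without a peak); examples beyond this rule (Mll1, Ezh2, marker, sine oculis family and retinoic acid genes, Evx and ParaHox genes, Igf2bp1 and genes of other intervals) were chosen after their values were seen. The GENCODE entry of Hoxa3 has 2 gene identifiers, which were merged. 1 further gene of HoxA was not analysed here. Some promoter sequences and marker genes are not reported here. The overlap code was tested on simulated data. Alternatives were stricter peaks (fold of at least 4, q of at most 0.001), other TSS windows and sets, other extensions and flanks, and a shorter sequence window. Computations used Python 3.11.15, numpy 2.4.6, pandas 2.3.3, scipy 1.17.1 and matplotlib 3.10.9.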

Additional observations from a re-analysis of the deposited data

How the results depend on the processing

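The counts of 0 Hox TSSs, 0 Hox genes and 0 covered bases held under every alternative run for them, including stricter peaks, windows of 5000 bp and the TSSs of all transcripts (82 Hox TSSs). The background moved. The percent of all TSSs with a peak was 37.2 with stricter peaks, 40.5 with the TSS base inside a peak, 52.1 from 5000 bp upstream to 1000 bp downstream, 53.2 with 5000 bp on each side, 45.2 for all transcripts, 47.5 for gene 5′ ends, 90.1 for CpG-rich windows and 46.9 by peak midpoint. The percent of all genes was 37.7, 43.0, 51.2, 52.0, 49.97 (all transcripts), 47.6 (5′ ends), 88.2 (CpG-rich) and 48.65 (midpoint) under the same settings. Extending the gene bodies by 10 or 50 kb found 0 peaks, and by 100 kb, a setting chosen after seeing the data, 2, those at Lnp and Mtx2. With stricter peaks the median distance of other genes rose to 24.9 kb, while that of Hox genes was 212 kb. Flanks of 100 kb held 2 peaks and flanks of 1000 kb held 83. In the window from 250 bp before to 50 bp after the TSS, the difference in median CpG ratio (Hox minus other) was 0.143, against 0.0908, and that in median GC reversed to -2 percentage points (54.3 against 56.3%), from 2.90. The intervals with 5 or more CpG-rich genes numbered 8 with stricter peaks (3 with Hox genes) and 7 with the short window (4 with Hox genes), both settings chosen after seeing the data. The causes of these changes were not tested.

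No paired analysis was possible because the deposited list pools the replicates, and none can be left out. The control was the shallower library, and the depth behind a region without a peak is not in the list.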

Other observations

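Gene families were also compared by symbol, a grouping chosen after the data were seen. Genes with a CpG-rich TSS window were grouped by the first 3 letters of their symbols, and 125 groups had 10 or more such genes. Of the 7191 CpG-rich genes, 847 had no TSS peak. The Hox group ranked first among these 125, with 19 of 19 genes without a peak. The Wnt group, which encodes secreted signalling proteins, followed with 12 of 13 and the Kcn group of potassium channel genes with 19 of 33. The share was 17 of 35 for Fox genes, 5 of 11 for Bmp genes and 4 of 12 for Sox genes. The limit of 10 genes left out smaller groups, among them Nkx, Lhx and Pax. None of the CpG-rich Nkx genes had a peak, and most genes of the Lhx and Pax groups had none. CpG-rich genes without a peak were thus found in several families of developmental regulators, and the Hox group differed from the next ranked group by 1 gene.

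Distances to a peak overlapped with those of other genes without a TSS peak. Of the 828 other CpG-rich genes without a TSS peak, 51.0% lay farther from a peak than Hoxd1, with a median of 64.4 kb and quartiles of 28.6 and 147 kb. The CpG-rich HoxD genes, at 62.5 to 121 kb, lay within these quartiles, and the CpG-rich genes of HoxA, HoxB and HoxC, at 174 to 248 kb, lay above them. Against all 11148 other genes without a TSS peak, with quartiles of 25.4 and 240 kb, the medians of all 4 clusters lay within the quartiles.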
